A study of Mus musculus with 3 samples.

Results

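The GABA-A receptor genes considered here were *Gabra2*, *Gabra4*, *Gabra5*, *Gabra6*, *Gabrb1*, *Gabrb2* and *Gabrg3*, 7 of the 19 protein-coding subunit genes of the receptor in the mouse annotation. Their accessible sites were taken from the peak list of dopaminergic neurons (DNs) of the midbrain ventral tegmental area (VTA), as every peak that overlapped a GENCODE M21 gene body or lay within 20 kb of it. The rule found 26 peaks of the 55326 in the list (0.0470%), counted 28 times because 2 of them belonged to both *Gabra4* and *Gabrb1*. Single-nucleus ATAC-seq (snATAC-seq), in which a transposase cuts accessible DNA in single nuclei, had been done on wild-type male C57Bl/6Nl mice, with 1 library from an age of 7 weeks and 1 from 9 weeks. Neither library came from treated or genetically altered animals, and the DN nuclei of both were pooled in a single list of positions. DNs had been picked out by the authors as a cluster of nuclei, not by a sort for a neuronal marker. A bulk ATAC-seq library of mouse embryonic stem cells in the same series was not analysed here.

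Because the list holds no count, height or score and no separate replicates, each value below is a count of called peaks or a property of their positions, with no replicate error, and no test was made. The list gives no depth for any position, so a stretch without a peak is one where none was called. All 9 DN markers had a peak within 1 kb of a start site, against 56.4% of all protein-coding genes. Among them were *Th*, which encodes the rate-limiting enzyme of dopamine synthesis, and *Slc6a3*, the dopamine transporter gene. The authors chose the DN cluster by its accessibility score for *Th* and checked it with further markers, *Slc6a3* among them. Peaks at these markers are thus no independent sign of the cell type. None of the 7 marker genes of oligodendroglia, astrocytes and microglia had a peak within 1 kb of a start site. Of these 7, however, 2 had peaks elsewhere in their bodies, 5 and 9 of them, and 5 had between 1 and 9 peaks when the flanks of 20 kb were included.

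GABA-A receptors are chloride channels built of 5 subunits around a pore, and they carry fast inhibition by GABA throughout the brain, including the inhibitory input onto VTA neurons. Most hold α and β subunits, between which GABA binds, together with a γ subunit that is needed for benzodiazepine binding and for anchoring at synapses. Their genes sit in clusters that arose by duplication, and members of a cluster are often arranged head to head or in a row.

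The stretches just before 4 of the starts are shown first, because they differ in whether a peak covered them and in their base composition. Each is the 120 bases before the RefSeq start, in the direction of transcription, with CpG dinucleotides in capitals.
Gabra2 upstream (GRCm38.p6, chr5:71095850-71095969, minus strand): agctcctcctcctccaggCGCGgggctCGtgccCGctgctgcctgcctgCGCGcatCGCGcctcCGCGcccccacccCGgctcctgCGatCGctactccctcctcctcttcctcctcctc
Gabra5 upstream (GRCm38.p6, chr7:57510060-57510179, minus strand): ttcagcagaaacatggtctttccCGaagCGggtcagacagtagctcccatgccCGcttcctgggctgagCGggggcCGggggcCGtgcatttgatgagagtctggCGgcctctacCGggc
Gabrg3 upstream (GRCm38.p6, chr7:57387216-57387335, minus strand): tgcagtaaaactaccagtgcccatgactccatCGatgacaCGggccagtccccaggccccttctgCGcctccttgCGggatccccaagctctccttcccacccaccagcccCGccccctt
Gabra6 upstream (GRCm38.p6, chr11:42321073-42321192, minus strand): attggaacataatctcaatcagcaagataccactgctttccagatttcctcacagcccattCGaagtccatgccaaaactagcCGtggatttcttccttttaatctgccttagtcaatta
The *Gabra2*, *Gabra5* and *Gabrg3* stretches lay entirely within peaks and held 13, 8 and 5 CpGs. The *Gabra6* stretch had no base in a peak, held 2 CpGs and was 40.8% GC, against 74.2% for *Gabra2* and 64.2% for both of the others.

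Of the 7 genes, 6 had a peak whose centre lay within 1 kb of a start site of a basic protein-coding transcript, the exception being *Gabra6*. Of all 21755 protein-coding genes on the autosomes and X, 56.4% had such a peak. A peak in the gene body or within 20 kb was found for the same 6 members, against 76.6% of all genes, and in the body itself also for 6, against 63.8%. Body peaks away from every coding start site were found in 5 members, with *Gabra2* and *Gabra6* lacking them, against 35.0% of all genes. All members but *Gabra6* (14.6 kb) are longer than the median protein-coding gene (17.4 kb). Among genes of 0.5 to 2 times the length of each member, those with a start-site peak made up from 56.6% for genes like *Gabra6* to 82.2% for genes like *Gabrb1*, and those with a body peak away from start sites from 28.4% for genes like *Gabra6* to 92.3% for genes like *Gabrg3*.

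**Figure D1:**
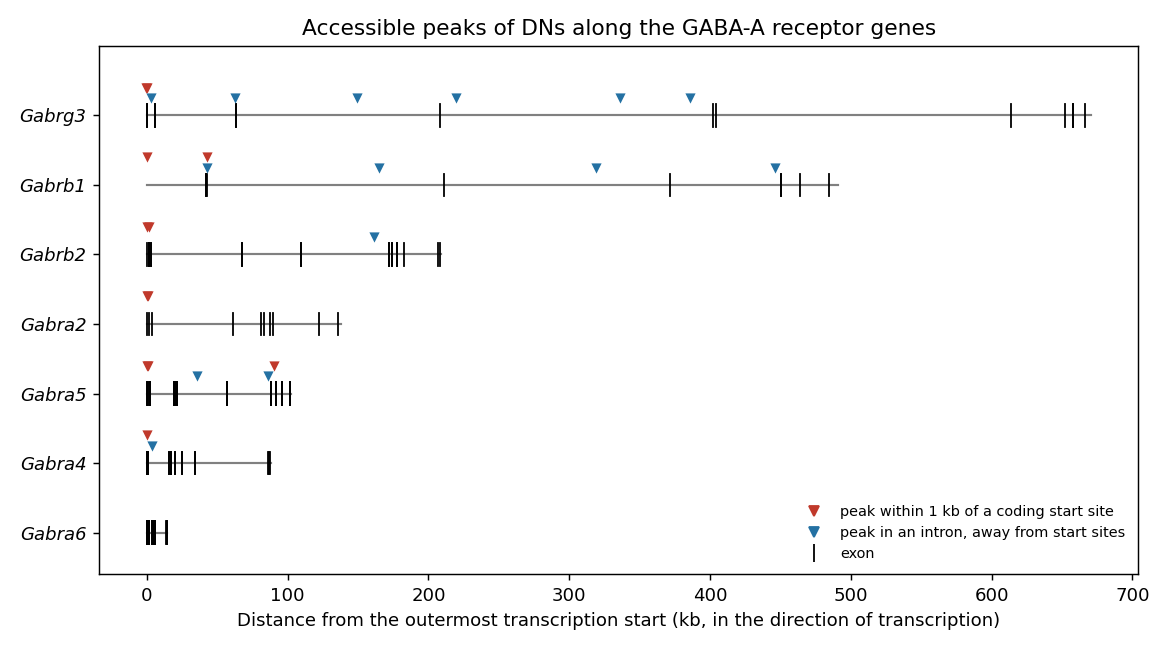
Each line is a gene drawn to scale from its outermost start (x axis, kb in the direction of transcription), with exons of basic coding transcripts as ticks and peaks overlapping the gene body as triangles, red within 1 kb of any coding start site and blue in introns. The red triangle at 0 on *Gabrb1* is the start-site peak of *Gabra4*, *Gabra2* has peaks at its start alone, and *Gabra6* has none.

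On chromosome 5, *Gabra2* runs on the minus strand from 70957597 to 71095849 (138 kb). This gene encodes an α subunit found at many synapses, including those on the axon initial segment. Both of its peaks lay at its 5′ end. The peak at chr5:71095631-71096130 was centred 32 bp upstream of the start and was 65.6% GC. The other, at chr5:71095032-71095531, was centred 567 bp downstream in intron 1, with 99 bp between them. The remaining 137 kb of the gene, including intron 3 of 57.2 kb and intron 8 of 32.5 kb, held no peak, and the nearest peaks outside the gene were 246 kb upstream and 114 kb downstream.

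*Gabra4* (chr5:71569749-71658308, minus strand, 88.6 kb) encodes an α subunit found mostly in receptors outside synapses. It lies head to head with *Gabrb1* (chr5:71658113-72149037, plus strand, 491 kb), which encodes a β subunit, and their annotated ends overlap by 196 bp. The overlap comes from a *Gabrb1* transcript outside the basic set, whereas the basic coding transcript of *Gabrb1* starts 41819 bp farther on. A single peak, chr5:71657734-71658233 (66.2% GC), covered the starts of 2 of the 3 basic coding transcripts of *Gabra4*, with its centre 3 bp upstream of one of them, and it also covered the outermost start of *Gabrb1*, 129 bp from its centre. It was thus assigned to both genes, and from positions alone it cannot be told apart to which of them its accessibility belongs. The other *Gabra4* peak (chr5:71654175-71654674, 40.4% GC) lay in intron 2, 3.88 kb from the outermost start. Intron 8 of *Gabra4*, 51.6 kb and 58.3% of the gene, held none.

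No peak overlapped the basic coding start of *Gabrb1* itself. The nearest, chr5:71700338-71700837 (54.0% GC), was centred 656 bp downstream in intron 2, and the next, chr5:71700947-71701446 (61.2% GC), at 1265 bp in intron 3. The 3 other body peaks stood far apart, at 165, 319 and 447 kb from the outermost start, in introns 3, 4 and 5, which span 169, 160 and 78.4 kb. They were 40.2, 37.8 and 41.4% GC, lower than the pair near the start. The longest stretch of *Gabrb1* without a peak was 153 kb. Beyond its 3′ end, the peak at chr5:72167970-72168469 lay within 1 kb of the start of *Commd8*, a neighbouring gene. Without that peak and the intronic *Gabra4* peak, both in the flanks, *Gabrb1* had 6.

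**Figure D2:**
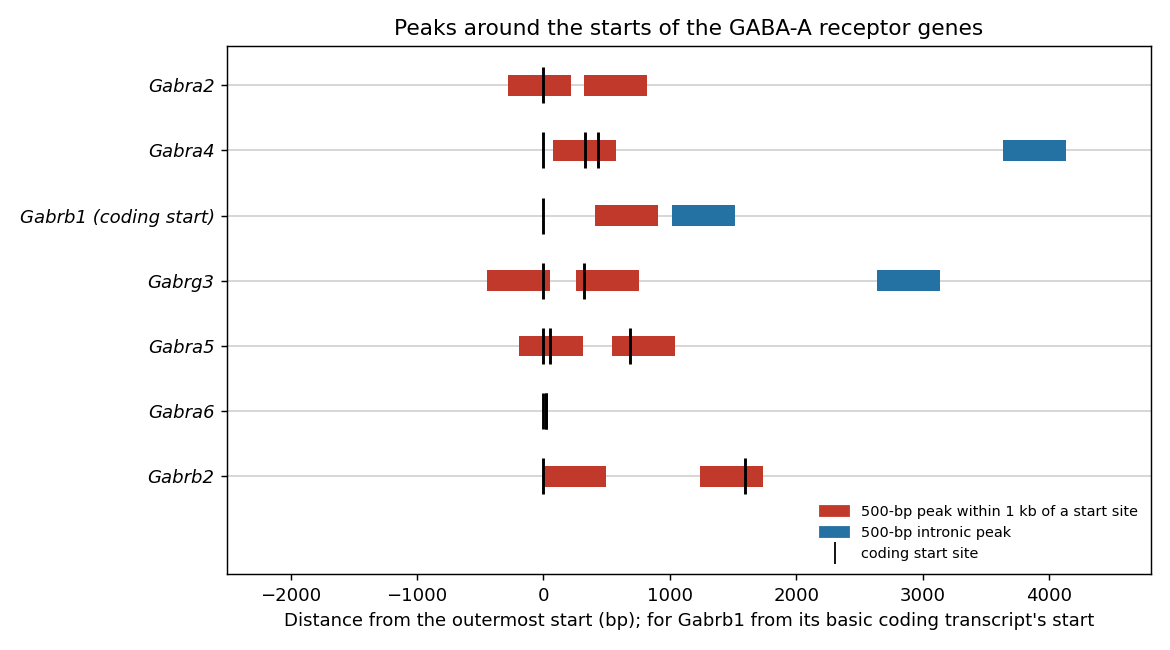
Peaks (500-bp boxes, red within 1 kb of a coding start site and blue in introns) and basic coding start sites (black ticks) are placed by distance in bp from the outermost start, or for *Gabrb1* from the start of its basic coding transcript. A start site lies inside a peak in *Gabra2*, *Gabra4*, *Gabrg3*, *Gabra5* and *Gabrb2*, the *Gabrb1* peaks lie downstream of its start, and *Gabra6* has no peak.

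On chromosome 7, *Gabrg3* (chr7:56716465-57387188, minus strand, 671 kb) encodes a γ subunit and is the longest of the 7. With 8 peaks in its body it shared the highest count with *Gabrb1*, whose 8 included 2 in the flanks. One peak covered the outermost start (chr7:57387133-57387632, 55.0% GC) and another the second start site (chr7:57386433-57386932, 65.4% GC), 200 bp apart. The next, chr7:57384053-57384552, lay 2.88 kb downstream in intron 1 and was 53.4% GC. The other 5 were spread over introns 2 and 3, at 62.5, 149, 220, 336 and 386 kb from the start, and were between 38.4 and 44.8% GC. Intron 3, at 338 kb the longest of any member and 50.5% of the gene, held 4 of them. The 3′ part was different, in that the last 285 kb of the gene, with the 209 kb of intron 5, held no peak.

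*Gabra5* (chr7:57407672-57510059, minus strand, 102 kb) encodes an α subunit best known from extrasynaptic receptors of the hippocampus. It begins a row with *Gabrg3*, whose outermost start is 20.5 kb beyond its 3′ end. The outermost *Gabrg3* peak, 20040 bp from that end, fell just outside the 20 kb flank. Of its 5 body peaks, 2 lay at its own starts. The peak at chr7:57509750-57510249 covered the 2 outer start sites with a CpG ratio (observed over that given by the C and G content) of 0.92, the highest among the members' peaks. The peak at chr7:57509016-57509515 covered the third start site, 688 bp downstream, and at 73.4% was the most GC-rich. A further peak 90.3 kb from the outermost start, in intron 7, lay within 1 kb of the start site of another gene on the plus strand and so cannot be counted as particular to *Gabra5*. The remaining pair, in introns 5 and 6 at 35.7 and 85.9 kb, were 46.2 and 39.6% GC.

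On chromosome 11, *Gabra6* and *Gabrb2* are transcribed away from each other, with 98.7 kb between them. *Gabrb2* (chr11:42419757-42629028, plus strand, 209 kb) encodes a β subunit that is among the most abundant in the brain. It had a peak over its outermost start (chr11:42419753-42420252, 61.2% GC) and one over its second start site (chr11:42420991-42421490, 45.4% GC), the least GC-rich of the members' start-site peaks. Its only other peak, chr11:42580573-42581072, was in intron 6, 161 kb from the start and 38.2% GC. Between the peak at the second start site and this one lay 159 kb without any.

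*Gabra6* (chr11:42306437-42321072, minus strand, 14.6 kb) encodes an α subunit known for its near restriction to granule cells of the cerebellum. It had no peak in its body or within 20 kb, and the nearest ones were 98.7 kb upstream, at the start of *Gabrb2*, and 124 kb downstream. It was also the shortest member. Of the 7995 genes of 0.5 to 2 times its length, 5080 had a higher peak density and the other 2914 besides *Gabra6* likewise had no body peak. For the body and 20 kb together no share was taken at this length, and 76.6% of all protein-coding genes had a peak there. The part of length in the absence of *Gabra6* peaks was not tested.

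Some of the members had start-site peaks in pairs. In *Gabra2*, *Gabrg3*, *Gabra5* and *Gabrb2*, 4 of the 7 genes, 2 peaks lay within 1 kb of a start site, with 99, 200, 234 and 738 bp between them. Of all protein-coding genes 21.3% had 2 or more such peaks, which is 4626 of the 12271 genes with any. Among the members it was 4 of the 6 with any. No share was taken for genes of like length or with several start sites. In *Gabra5*, *Gabrg3* and *Gabrb2* each peak of the pair covered a different annotated start, whereas *Gabra2* has a single basic coding start and its second peak lay beyond exon 1.

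Base composition separated *Gabra6* from the other genes at the start as well. Over the window from 250 bp before to 50 bp after the outermost basic coding start, *Gabra6* was 42.0% GC with a CpG ratio of 0.16. The other 6 lay between 50.3% for *Gabrb1* and 70.0% for *Gabra2*, with CpG ratios of 0.31 for *Gabrb2* to 0.72 for *Gabra2*. In the whole annotation 11.7% of protein-coding genes had a lower promoter GC than *Gabra6*, 31.9% a lower one than *Gabrb1* and 88.5% a lower one than *Gabra2*. Of the 3942 genes within 5 percentage points of the promoter GC of *Gabra6*, 20.1% had a start-site peak, and of the 12459 genes in the range of the other 6 members 69.2% had one. Of the 2453 genes with a CpG ratio within 0.05 of that of *Gabra6*, 13.8% had one. The part of promoter composition in the absence of a *Gabra6* peak was not tested.

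**Figure D3:**
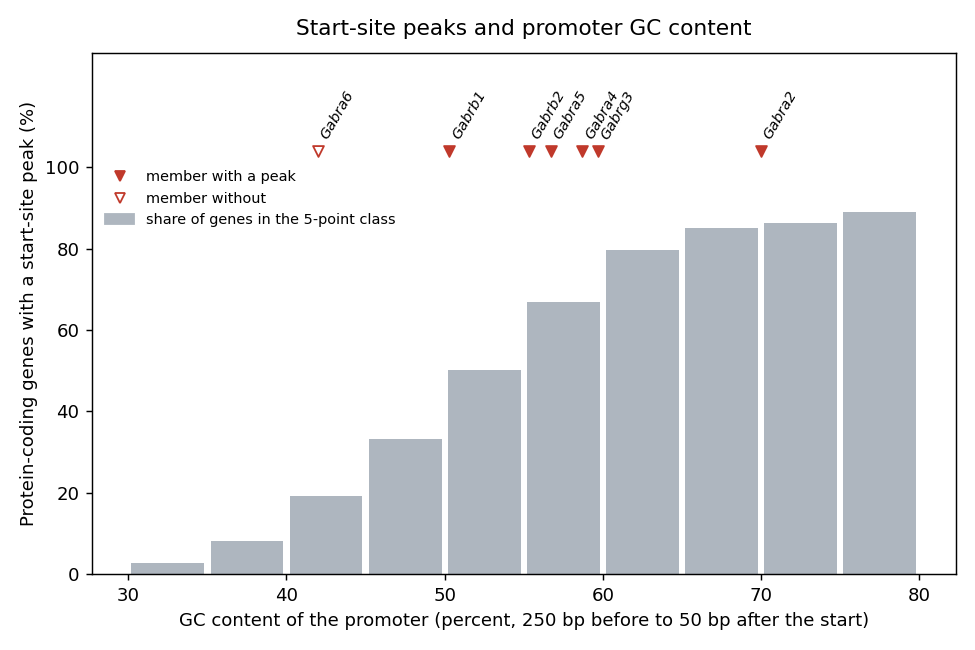
Bars give the percentage of protein-coding genes with a start-site peak in classes of promoter GC content (x axis, classes of 5 percentage points), rising from 2.81% at 30 to 35% GC to 89.1% at 75 to 80% GC. Triangles above mark the promoter GC of the members, filled for those with a start-site peak and open for *Gabra6*, which lies in a class where 19.3% of genes had one.

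Relative to length, the members were not rich in peaks. Peak density in the gene body was 48.8 per Mb in *Gabra5*, 22.6 in *Gabra4*, 14.5 in *Gabra2*, 14.3 in *Gabrb2*, 12.2 in *Gabrb1*, 11.9 in *Gabrg3* and 0 in *Gabra6*. Only *Gabra5* lay above the median of protein-coding genes of 0.5 to 2 times its length (24.7 per Mb over 3929 genes), with a higher density than 76.2% of them. *Gabrg3* (median of its 452 like genes 12.4 per Mb) and *Gabra4* (24.8 per Mb over 4415) were just under their medians, with a higher density than 48.5 and 47.5%. *Gabrb1*, *Gabrb2* and *Gabra2* exceeded 42.6, 36.6 and 35.7%. Counting only body peaks away from start sites, the density of *Gabra5* was 19.5 per Mb, of *Gabra4* 11.3, of *Gabrg3* 8.95, of *Gabrb1* 8.15, of *Gabrb2* 4.78 and of *Gabra2* 0, which leaves the top 2 in place and puts *Gabrg3* and *Gabrb1* above *Gabra2* and *Gabrb2*.

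**Figure D4:**
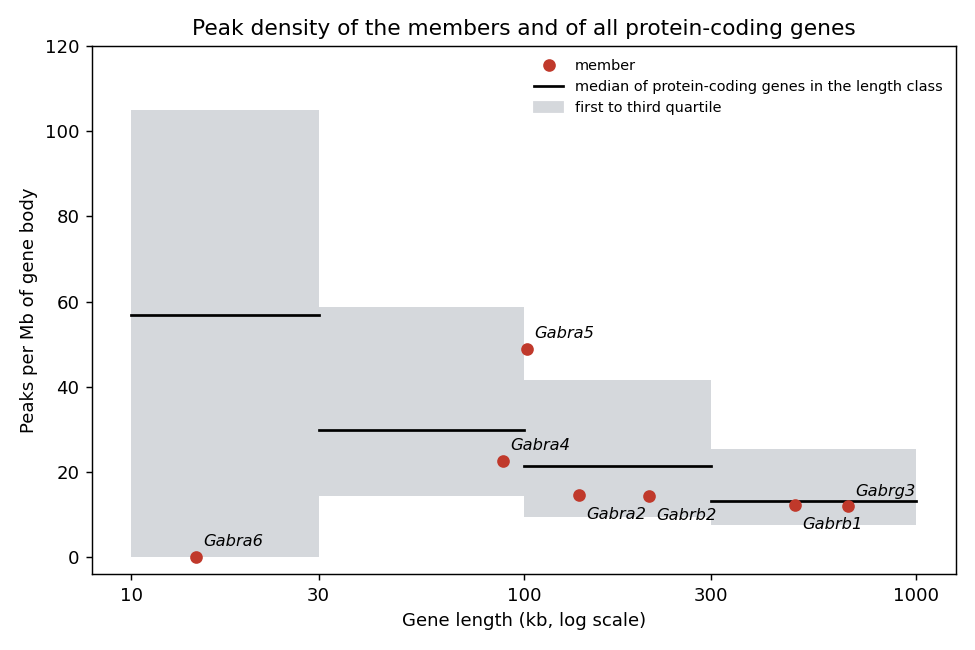
Peaks per Mb of gene body (y axis) against gene length (x axis, kb, log scale) for the 7 members, over the median and quartiles of all protein-coding genes in 4 length classes. *Gabra5*, at 48.8 per Mb, is above the upper quartile of its class (41.7), *Gabra6* is at 0, and the other 5 lie below the medians but within the quartiles.

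Densities were also taken by cluster, over regions that consist mostly of the members and their flanks. From 20 kb outside the outermost members of each cluster, the region on chromosome 5 held 12 peaks in 1.23 Mb (9.74 per Mb), that on chromosome 7 held 13 in 0.834 Mb (15.6 per Mb) and that on chromosome 11 held 3 in 0.363 Mb (8.27 per Mb). The whole chromosomes held 26.4, 26.5 and 35.6 per Mb. The same regions were 38.2, 40.4 and 36.9% GC, each lower than its chromosome at 42.5, 43.1 and 43.8%. By the way the regions were drawn nearly every peak in them was a member's, and the 2 that were not lay on chromosome 5.

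By place, 12 of the 26 peaks lay within 1 kb of a coding start site (46.2%), 2 of these at starts of other genes, and 14 in introns (53.8%). None was classed as exonic away from starts or as intergenic, but since the rule took gene bodies and short flanks, few intergenic peaks could enter. In the whole list 30.1% of peaks were at start sites, 40.3% in introns, 7.31% in exons and 22.2% intergenic. Since the rule leaves out most intergenic peaks, it also raises the members' start-site and intron shares, which are not like for like with these. The start-site peaks of the members had a median GC of 59.2%, against 62.2% for all 16677 start-site peaks. The 14 intronic ones had a median of 40.9%, against 49.4% for all 22309 intronic peaks, and 11 of the 14 lay below the first quartile (45.2%) of those. The 2 above the median of all intronic peaks were the *Gabrg3* peak 2.88 kb from its start and the *Gabrb1* peak 1265 bp from its start. The low GC of the intronic peaks moved with the low GC of the regions given above, and the part of the latter was not tested.

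**Figure D5:**
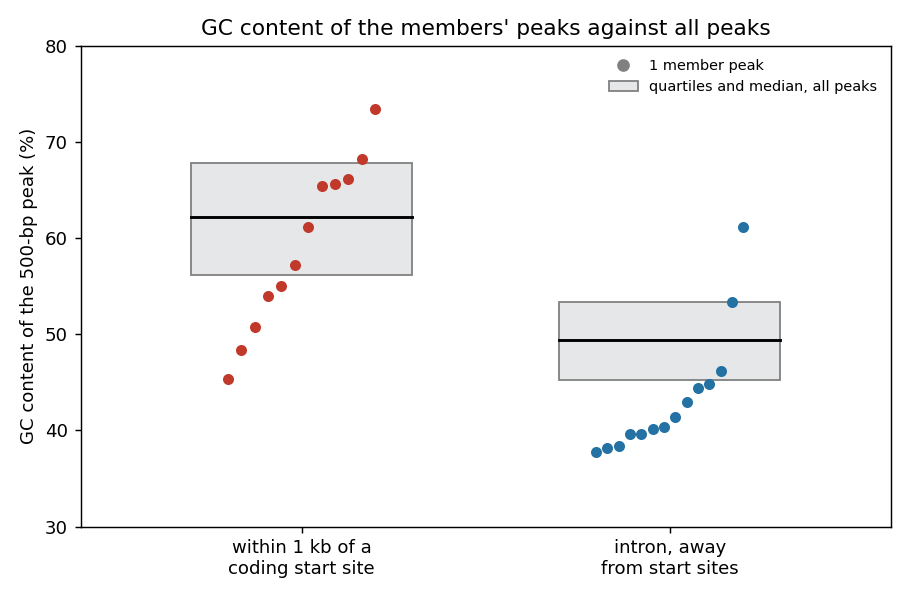
Points are the GC content (y axis, %) of the 26 distinct peaks, in the class within 1 kb of a coding start site (12 peaks, red) or in introns (14 peaks, blue), and boxes give quartiles and median of all peaks of the class. The intronic points lie mostly under the lower quartile of 45.2%, and the start-site points spread from 45.4 to 73.4%.

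In all, 8 motifs, of factors active in neurons or in DN identity and of the architectural protein CTCF, were searched on both strands. A bicoid-type homeodomain motif (TAATCC), as bound by Pitx and Otx factors, was in 4 of the 26 peaks (15.4%, against 13.6% of all peaks), namely the start-site peak of *Gabra2*, the intronic peak of *Gabra4*, a deep intronic peak of *Gabrb1* and the peak in intron 7 of *Gabra5*. A LIM-type homeodomain motif (TAATTA) was in 3 (11.5%, against 7.27%), and in none within the middle 250 bp of the peaks (against 2.73%), so that its share was above or below that of the list by the width searched. The 3 were the outermost start-site peak of *Gabrg3* and deep intronic peaks of *Gabrg3* and *Gabrb1*. A Neurod E-box (CAGATGG) was in 1 peak of *Gabrb1* (3.85%, against 11.5%), and an AP-1 motif (TGANTCA) in 1 of *Gabra5* (3.85%, against 12.3%). The forkhead motif TGTTTAC, the NR4A motif AAAGGTCA, the CRE TGACGTCA and the CTCF core were in none, and they were in 7.22, 4.00, 1.51 and 5.25% of all peaks. With 26 peaks these shares rest on very few matches, and a match is a run of letters, not a bound site. The matches did not overlap one another, and 17 of the 26 peaks (65.4%) held none, against 53.2% of all peaks.

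Of the intronic peaks with a motif, 4 are shown, as 150 bases of the plus strand taken from around the match, which is in capitals. The first pair carries the LIM-type motif, the next the bicoid-type motif and the last the Neurod E-box, read here from its other strand.
Gabrb1 intron (GRCm38.p6, chr5:72104702-72104851, plus strand): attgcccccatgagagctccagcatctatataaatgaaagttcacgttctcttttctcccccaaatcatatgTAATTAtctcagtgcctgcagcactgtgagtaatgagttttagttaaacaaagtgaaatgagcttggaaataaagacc
Gabrg3 intron (GRCm38.p6, chr7:57238135-57238284, plus strand): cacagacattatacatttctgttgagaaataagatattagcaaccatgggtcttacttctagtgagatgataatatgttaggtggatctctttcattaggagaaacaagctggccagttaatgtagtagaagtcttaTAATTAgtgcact
Gabrb1 intron (GRCm38.p6, chr5:71977153-71977302, plus strand): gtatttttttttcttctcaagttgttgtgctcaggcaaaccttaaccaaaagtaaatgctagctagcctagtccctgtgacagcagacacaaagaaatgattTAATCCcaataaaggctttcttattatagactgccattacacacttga
Gabrb1 intron (GRCm38.p6, chr5:71701134-71701283, plus strand): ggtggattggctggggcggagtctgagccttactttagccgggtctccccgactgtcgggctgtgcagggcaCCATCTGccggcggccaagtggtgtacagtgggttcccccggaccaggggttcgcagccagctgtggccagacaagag
The 3 deep intronic stretches held 1, 0 and 0 CpGs and were 38.7, 34.7 and 36.7% GC, whereas that beside the coding start of *Gabrb1* held 8 and was 66.0% GC. In the first 3 the match lay 157, 240 and 205 bp from the peak's centre, outside its middle 250 bp, and in the last it lay 12 bp from it.

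Other genes of the pathway and of fast transmission were set beside the members by counts alone. Of the 12 other subunit genes of the receptor, 3 had a start-site peak and 5 a body peak, and their median was 0 peaks per Mb. Their body peaks ranged from 0 to 11 per gene, so the highest count was above that of any member (8). All 22 genes for partners that assemble, anchor or traffic the receptor, or set the chloride and GABA it works with, had a start-site peak, and 15 of them lay above the median density of genes of like length. The most body peaks among the partners, 14 each, were in *Trak1*, which encodes a motor adaptor for trafficking, and *Slc12a5*, the gene of the neuronal chloride exporter. The fewest, 1 each, were in *Trak2*, a relative of *Trak1*, and *Zdhhc3*, which encodes a palmitoyl transferase acting on γ subunits. Among the genes of excitatory receptors, 9 of 11 for AMPA and NMDA receptors and 7 of 7 for kainate and delta receptors had a start-site peak, beside 6 of 7 here. Of these, 8 of 11 and 4 of 7 lay above the median density of genes of like length, against 1 of 7 among the GABA-A receptor genes. The median densities were 33.0 and 31.4 peaks per Mb at median lengths of 184 and 426 kb, against 14.3 at 138 kb for the members and 29.2 at 17.4 kb for all protein-coding genes. With no replicates and genes chosen by name, these differences carry no test.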

How the data were processed

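Chromatin accessibility of DNs was measured by snATAC-seq in 2 VTA libraries of male mice. The authors gated out doublets by DNA content when sorting nuclei and removed further ones with the ArchR defaults. Per the submitters' notes, Cell Ranger and ArchR were used with the mm10 build, and Bowtie is also listed. The authors called reproducible peaks over pseudobulk replicates of the DN cluster and deposited 1 pooled list of positions, 55326 intervals of 500 bp on 20 chromosomes, with no count, score or depth. Starts were read as counted from 0 and printed counted from 1. The paper's methods also describe a filter on the share of nuclei with a peak, and whether the list had passed it is not given in the sources used here.

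Peaks were assigned by an overlap of at least 1 bp with GENCODE M21 gene bodies extended by 20 kb, and by centres within 1 kb of basic coding start sites. Sequence came from GRCm38.p6, whose chromosomes are those of mm10, and promoters from the RefSeq table of the same build, in which all 7 members were found. All 19 annotated start codons of the members read ATG. Densities were ranked among genes of 0.5 to 2 times the length. Python 3.11.15 with numpy 2.4.6 and pandas 2.3.3 was used, and counting and motif search were tested on simulated positions. The members and lists were chosen with earlier results of these data known. Named genes were the members, DN markers, genes with a start within 1 kb of a member peak (1 of them is not reported here) and the partner genes with the most and fewest peaks. Other lists are given by counts.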

Additional observations from a re-analysis of the deposited data

How the results depend on the processing

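The number of peaks of the members was 25 with gene bodies alone, 27 with flanks of 50 kb, and 26 with the centre or the whole peak inside, with basic coding transcripts only or with starts counted from 1. *Gabra6* stayed at 0 under each of these. With flanks of 50 kb, *Gabra4* had 4 peaks and *Gabra5* 8. Members with a start-site peak numbered 5 at a distance of 500 bp, where *Gabrb1* was lost, and 6 at 2 kb, with outer starts only or with every transcript, where the *Gabrb1* outer start takes the *Gabra4* peak. Only *Gabra5*, 1 member, was above the median density of its length class in each setting. Within the middle 250 bp, motif matches fell from 9 to 4, since less sequence was searched. No stricter peak threshold could be tried, because the list has no score. No paired analysis was possible because the peak list used here pools the libraries and no result comes from a test. For the same reason neither library could be left out. The paper states that aligned reads were also made available, and these were not analysed here.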
